A study of Mus musculus with 9 samples.

Results

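Notch1, Notch2, Jag2, Lfng, Mfng and Psen2 are 6 genes of Notch signalling that the array measured with 1 probe set each, 6 of its 1246 probe sets and 6 of the 909 genes that could be named. They were chosen by name, as the probe sets whose RefSeq accession belongs to these mouse genes. The arrays held RNA of CD8 T cells with a transgenic T cell receptor, from female mice of the B10D2 strain. The array was a custom Affymetrix design for glycosylation genes called GLYCOv4. There were 3 groups of 3 arrays. Deletion cells had been given a weak signal of their cognate antigen in the animal and anergy cells a strong one, while naive cells were the control without stimulation. All groups carried the receptor transgene. The sample descriptions call the deletion and anergy cells purified and do not use the word for naive cells. The labels name neither the receptor's antigen nor the time after stimulation, and they do not say that the 3 samples of a group came from separate animals, so a p-value here reflects the scatter among arrays that may be technical repeats.

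Notch receptors are surface proteins that are switched on by Delta-like and Jagged ligands on a neighbouring cell. Ligand binding exposes the receptor to proteases, and the last cut, by the gamma-secretase complex with presenilin as its catalytic subunit, frees the intracellular domain, which joins the DNA-binding protein Rbpj to activate target genes. The extracellular EGF repeats of the receptor carry O-linked fucose, and Fringe enzymes lengthen it with N-acetylglucosamine, which changes how well the receptor answers each kind of ligand. In mouse CD8 T cells Notch1 and Notch2 are known to take part in effector differentiation after antigen contact.

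The values are log2 expression levels as deposited, so a difference of 1 is a 2-fold change. On the 9 arrays the values ran from 1.67 to 13.86, with medians between 4.44 and 4.58. Anergy replicate 3 stood apart, with a residual SD (the spread of its probe sets around their group means) of 0.166 against 0.0943 to 0.128 on the other arrays. Its values lay below the anergy mean for all 6 genes. The differences of these genes between anergy and the other groups are therefore also given without it. Of 8 listed markers of CD8 T cells only Cd2, an adhesion receptor of T cells, could be matched to a probe set. Its log2 level was 9.82 to 10.38 in deletion, 9.33 to 9.48 in anergy and 11.53 to 11.68 in naive cells. Cd2 is not particular to CD8 T cells, so the labelled cell type could not be checked with it.

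Both stimulated groups had less RNA of Notch1, Notch2, Jag2, Lfng and Mfng than naive cells, and more of Psen2. The calls of Notch1, Notch2 and Mfng in deletion held in 9 to 11 of 16 other settings of the test. In deletion against naive cells 5 of the 6 genes fell and Psen2 rose, while 10.5% of all probe sets fell and 8.51% rose. In anergy against naive cells the same 5 genes fell and Psen2 rose, while 16.1% of all probe sets fell and 10.8% rose. The genes were picked with earlier results of these data known, so these shares give the background of the array and are no test of the group. The median difference over the 6 genes was -0.39 in deletion against naive and -0.66 in anergy against naive, and over all probe sets it was -0.02 and 0.01. Every stimulated array lay below every naive array for the 5 genes that fell, as was seen for 17.3% of all probe sets in deletion and 20.7% in anergy. The comparisons share the naive arrays. Calls are by limma with Benjamini-Hochberg adjustment over the 1246 probe sets and an adjusted p under 0.05, and limits of 95% are not adjusted. In RNA of a whole sample, fewer cells that express a gene and less of its RNA per cell cannot be told apart.

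**Figure D1:**
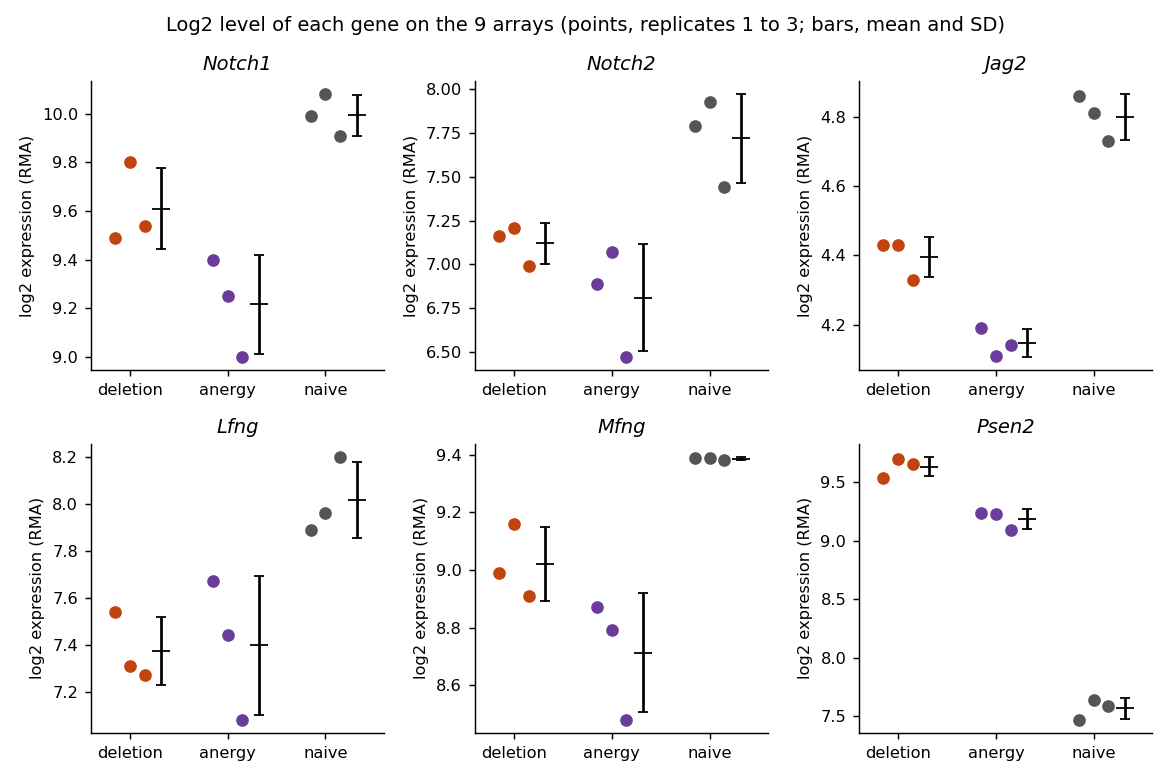
Log2 expression of the 6 genes on each array (points, replicates 1 to 3 from left to right) with the mean and SD of each group (bars), for deletion, anergy and naive cells; each panel has its own vertical axis, which does not start at 0. Naive cells had the highest arrays for Notch1, Notch2, Jag2, Lfng and Mfng and the lowest for Psen2, where deletion lay at 9.54 to 9.70, anergy at 9.09 to 9.24 and naive at 7.47 to 7.64.

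Notch1, the receptor that drives commitment of thymic progenitors to the T cell lineage, had log2 levels of 9.49, 9.80 and 9.54 in deletion replicates 1 to 3, 9.40, 9.25 and 9.0 in anergy replicates 1 to 3 and 9.99, 10.08 and 9.91 in naive replicates 1 to 3. The 3 groups did not overlap, and the order ran from naive through deletion to anergy. Against naive cells Notch1 was lower by 0.38 ± 0.11 in deletion on the log2 scale (SE, n = 3 arrays per group; limma adjusted p = 0.0427), a level 1.30-fold higher in naive cells (95% limits 1.09 to 1.56). In anergy it was lower by 0.78 ± 0.11 (limma adjusted p = 0.000537), 1.71-fold higher in naive cells (1.44 to 2.05). The fall in anergy passed in all 16 other settings of the test, and the fall in deletion in 9 of them. The deletion call was lost after median centring (limma adjusted p = 0.0941) and without deletion replicate 1 (0.151), deletion replicate 3 (0.134), anergy replicate 2 (0.0662), naive replicate 1 (0.106), naive replicate 2 (0.146) or naive replicate 3 (0.0666).

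Notch2, the receptor known for its role in marginal zone B cells and in dendritic cells of the spleen, was measured by a probe set that can bind more than 1 transcript. Its log2 levels were 7.16, 7.21 and 6.99 in deletion, 6.89, 7.07 and 6.47 in anergy and 7.79, 7.93 and 7.44 in naive replicates 1 to 3. Both stimulated groups lay below naive cells on every array, while deletion and anergy overlapped. Notch2 fell by 0.60 ± 0.16 in deletion (SE; limma adjusted p = 0.0261) and by 0.91 ± 0.16 in anergy (limma adjusted p = 0.00172), which are 1.52-fold (95% limits 1.18 to 1.95) and 1.88-fold (1.46 to 2.42) higher levels in naive cells. The anergy call held in all 16 other settings. The deletion call held in 11 and was lost after median centring (limma adjusted p = 0.0571) and without deletion replicate 1 (0.0636), deletion replicate 3 (0.0956), naive replicate 1 (0.0923) or naive replicate 2 (0.108).

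Jag2, a ligand of the Jagged type, was the ligand among the 6 genes. Its log2 levels were 4.43, 4.43 and 4.33 in deletion, 4.19, 4.11 and 4.14 in anergy and 4.86, 4.81 and 4.73 in naive replicates 1 to 3. The groups did not overlap and their replicates lay close together, with SDs of 0.06, 0.04 and 0.07. Jag2 fell by 0.40 ± 0.06 in deletion (SE; limma adjusted p = 0.00103) and by 0.65 ± 0.06 in anergy (limma adjusted p = 2.59e-05), calls that held in all 16 other settings. The levels of Jag2 were close to the array medians, and no detection call was used here, so how far they stood above background was not measured.

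Lfng encodes lunatic fringe, the Fringe enzyme needed for normal T cell development in the mouse thymus. Its log2 levels were 7.54, 7.31 and 7.27 in deletion, 7.67, 7.44 and 7.08 in anergy and 7.89, 7.96 and 8.20 in naive replicates 1 to 3. All stimulated arrays lay below the naive ones, and the deletion arrays fell within the range of anergy. Lfng fell by 0.64 ± 0.15 in deletion (SE; limma adjusted p = 0.0105) and by 0.62 ± 0.15 in anergy (limma adjusted p = 0.00936), levels 1.56-fold (95% limits 1.24 to 1.96) and 1.54-fold (1.23 to 1.93) higher in naive cells. Without naive replicate 3, the highest array, the deletion difference was -0.55 (limma adjusted p = 0.0504), and the anergy call held in all 16 other settings.

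Mfng, manic fringe, adds the same sugar as lunatic fringe. Its log2 levels were 8.99, 9.16 and 8.91 in deletion, 8.87, 8.79 and 8.48 in anergy and 9.39, 9.39 and 9.38 in naive replicates 1 to 3. The naive arrays were almost equal, and the groups did not overlap. Mfng fell by 0.37 ± 0.10 in deletion (SE; limma adjusted p = 0.0323) and by 0.67 ± 0.10 in anergy (limma adjusted p = 0.000696), levels 1.29-fold (95% limits 1.10 to 1.51) and 1.59-fold (1.36 to 1.87) higher in naive cells. The anergy call held in all 16 other settings. The deletion call held in 10 and was lost after median centring (limma adjusted p = 0.0811) and without deletion replicate 1 (0.0988), deletion replicate 3 (0.122), naive replicate 1 (0.0903), naive replicate 2 (0.0898) or naive replicate 3 (0.0864).

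Psen2, presenilin 2, is a catalytic subunit of gamma-secretase. Its probe set can bind more than 1 transcript. The log2 levels were 9.54, 9.70 and 9.66 in deletion, 9.24, 9.23 and 9.09 in anergy and 7.47, 7.64 and 7.59 in naive replicates 1 to 3. Deletion was highest on every array, then anergy, then naive, with gaps of 0.30 between deletion and anergy and 1.45 between anergy and naive. Psen2 was 4.19-fold higher in deletion than in naive cells (95% limits 3.73 to 4.70; 2.07 ± 0.07 on the log2 scale, SE; limma adjusted p = 2.16e-08) and 3.07-fold higher in anergy than in naive cells (2.74 to 3.45; 1.62 ± 0.07; limma adjusted p = 1.15e-07). Of the 1246 probe sets, 18 had a larger rise in deletion and 21 a larger rise in anergy. Both calls held in all 16 other settings.

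**Figure D2:**
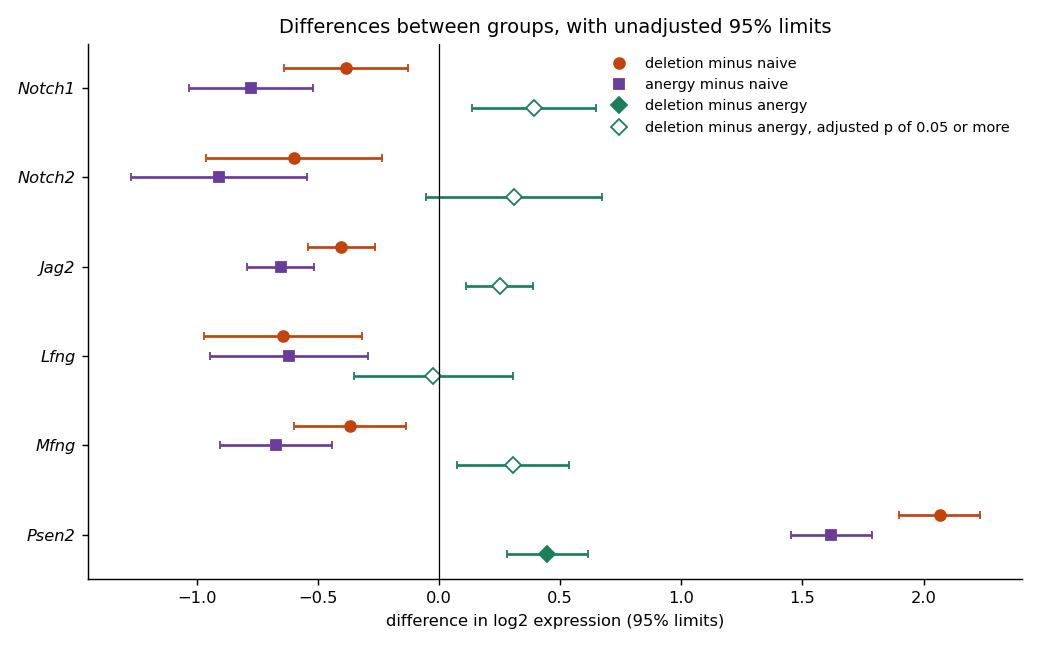
Differences in log2 expression for each gene, as deletion minus naive, anergy minus naive and deletion minus anergy, with 95% limits that are not adjusted; filled symbols have an adjusted p under 0.05. All differences from naive are filled, negative for 5 genes and positive for Psen2 (2.07 and 1.62), and of the differences between deletion and anergy that of Psen2 (0.45) alone is filled.

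The study set deletion against anergy, cells on different routes to tolerance, and here Psen2 alone passed. It was 1.36-fold higher in deletion than in anergy (95% limits 1.21 to 1.53; 0.45 ± 0.07 on the log2 scale, SE; limma adjusted p = 0.00942), against 2.09% of all probe sets that were higher and 1.28% that were lower. These shares rest on 26 higher and 16 lower probe sets, which were 32 and 38 with quantile-normalized arrays and 13 and 13 with median-centred ones. The Psen2 call held in 15 of 16 other settings, with the replicate block among them (limma adjusted p = 0.011), and was lost without deletion replicate 2 (0.41, limma adjusted p = 0.0513).

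The other 5 genes did not pass between deletion and anergy. Notch1 differed by 0.39 (95% limits 0.14 to 0.65; limma adjusted p = 0.103), Mfng by 0.31 (0.08 to 0.54; 0.162) and Jag2 by 0.25 (0.11 to 0.39; 0.0639), each with the higher level in deletion and with arrays that did not overlap. Arrays without overlap and with deletion higher were seen for 11% of all probe sets. Jag2 passed with array weights (limma adjusted p = 0.0257) and in no other setting. Notch2 differed by 0.31 (-0.05 to 0.67; limma adjusted p = 0.401), with arrays that overlapped. Lfng differed by -0.02 (-0.35 to 0.30; 0.946), limits that leave room for a difference of up to about 0.3 either way. Without anergy replicate 3 the difference was 0.14 for Notch2 (limma adjusted p = 0.75), 0.19 for Mfng (0.297) and -0.18 for Lfng (0.581). For Notch1 it was 0.285 (limma adjusted p = 0.239) and for Jag2 0.247 (0.0944). The order naive, deletion, anergy from high to low held for the means of Notch1, Notch2, Jag2 and Mfng, an order found for 27% of all probe sets on this array.

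**Figure D3:**
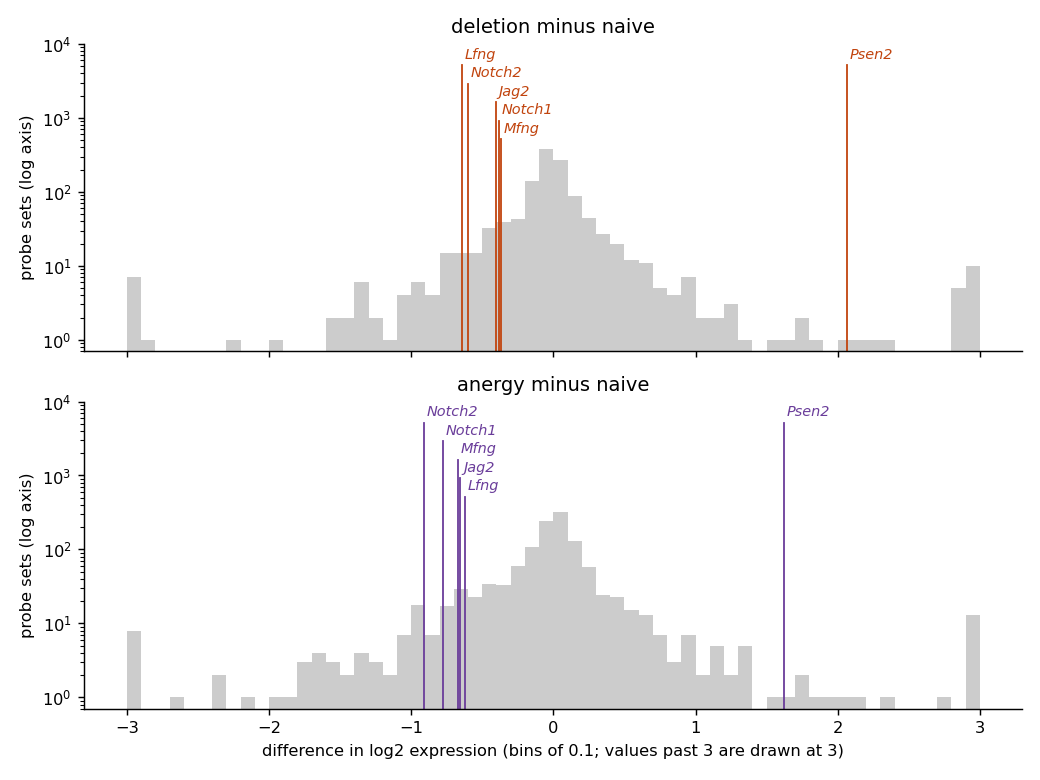
Histograms of the log2 differences of all 1246 probe sets, deletion minus naive above and anergy minus naive below, with the 6 genes marked by lines; the vertical axis is a log axis and values past 3 are drawn at 3. Lines of Notch1, Notch2, Jag2, Lfng and Mfng lie between -0.64 and -0.37 for deletion and between -0.91 and -0.62 for anergy, and Psen2 lies at 2.07 and 1.62.

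Within a group the genes often deviated in the same direction, with unequal size. Of the 6 genes, 6 lay below the group mean on anergy replicate 3 and 0 on anergy replicate 1. On deletion replicate 1 and on naive replicate 1 it was 3 of the 6. On anergy replicate 3 Notch2 lay 0.34, Lfng 0.32, Mfng 0.23, Notch1 0.22 and Psen2 0.10 below the anergy mean, and Jag2 lay 0.01 below it. Without this array the count of falls and rises among the 6 genes against naive stayed at 5 and 1 in both comparisons. Anergy then differed from naive by -0.67 for Notch1, -0.74 for Notch2 and -0.65 for Jag2. For Lfng, Mfng and Psen2 it differed by -0.46, -0.56 and 1.67. Psen2 was then 0.40 higher in deletion than in anergy (limma adjusted p = 0.0298). Over the 9 arrays the patterns of Notch1 and Mfng were the most alike of any pair among the 6, with a root mean square difference of 0.07 between their profiles after each was centred on its own mean. For the pair of Fringe genes this difference was 0.20, and for the pair of receptors 0.17.

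Among all named genes the pattern of Mfng was also the nearest to that of Notch1, ahead of Zkscan3 (0.09) and Lipa, the lysosomal acid lipase (0.10), against a median of 0.36 over 962 probe sets. Nearest to Mfng after Notch1 was Hes6, a basic helix-loop-helix factor of the Hes family (0.09), and then the interleukin-17 receptor chain Il17ra (0.09). Nearest to Notch2 were Atrn, which encodes attractin (0.10), Pigp of GPI anchor synthesis (0.13) and B3galnt2 (0.15). Nearest to Jag2 were the lysosomal sulfatase gene Arsa (0.06), the tyrosine sulfotransferase gene Tpst2 (0.07) and the hexosaminidase gene Hexa (0.08). Nearest to Lfng were the lectin receptor gene Ly75 (0.13), B4galt7 (0.14) and the activin receptor gene Acvr2a (0.14). For Psen2 the interleukin-18 receptor chains Il18rap (0.22) and Il18r1 (0.27) came first, then the core 2 O-glycan enzyme Gcnt1 (0.28), against a median of 0.90. These are descriptions over 9 arrays that share 3 groups.

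**Figure D4:**
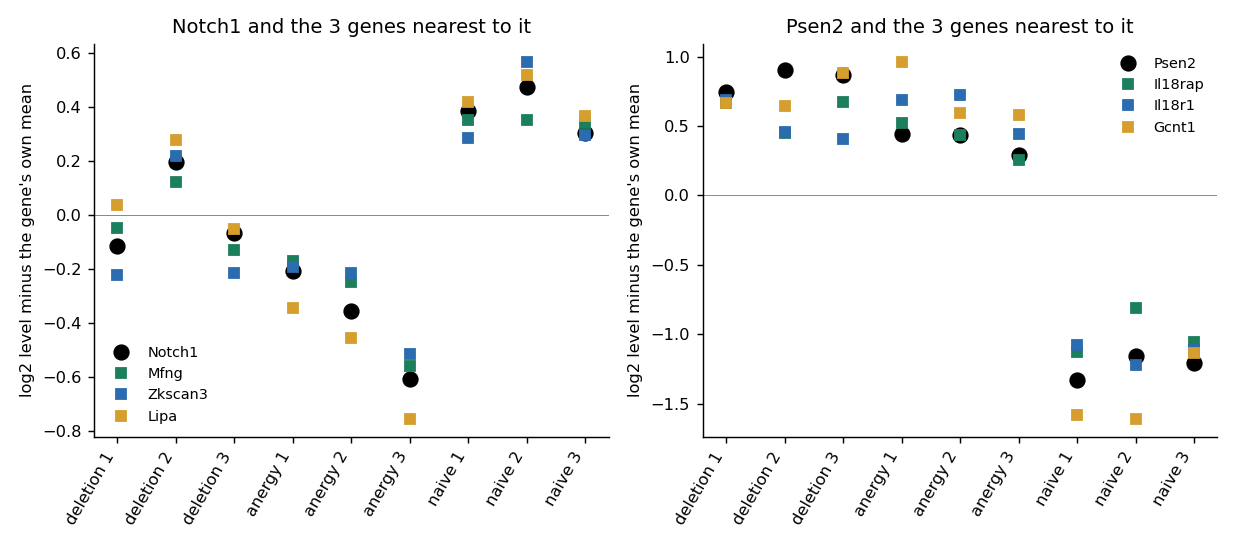
Log2 level on each of the 9 arrays minus the gene's own mean over the arrays, for Notch1 (left) and Psen2 (right, black circles) and the 3 named genes whose patterns were nearest to each (coloured squares). Notch1 and Mfng lie within a root mean square difference of 0.07, and Psen2 and Il18rap within 0.22.

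Of the other Notch receptors and ligands, 6 of 9 listed genes were measured, and 0 passed limma in any of the 3 comparisons. Over all probe sets 8.51% rose and 10.5% fell in deletion, and 10.8% rose and 16.1% fell in anergy. Between deletion and anergy 2.09% were higher and 1.28% lower in deletion. At an unadjusted p under 0.05 there was 1 of the 6 in anergy against naive and 0 in the other comparisons. Of all 1246 probe sets 341 had such a p in deletion against naive, 425 in anergy against naive and 188 in deletion against anergy. So few genes cannot set the list apart from the array. Notch3 had a mean log2 level of 3.19 in deletion, 3.22 in anergy and 3.22 in naive cells, and Notch4 3.22, 3.22 and 3.35 in the same order. The Delta-like ligand Dll1 stood at 2.82, 2.89 and 2.86, Dll3 at 2.97, 3.07 and 2.93, and Jag1 at 2.97, 2.86 and 3.14, all below the array medians. Dll4, the ligand that drives Notch1 in the thymus, stood at 5.26, 5.36 and 5.30. The differences from naive ran from -0.17 to 0.04 in deletion and from -0.27 to 0.14 in anergy, with the largest for Jag1 (-0.27 ± 0.10 in anergy, SE; limma adjusted p = 0.0865).

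Of the genes that process or move Notch, 3 of 12 were measured and 0 passed limma in any comparison. Over all probe sets 8.51% rose and 10.5% fell in deletion, and 10.8% rose and 16.1% fell in anergy. Between deletion and anergy 2.09% were higher and 1.28% lower in deletion. At an unadjusted p under 0.05 there were 0 of the 3 in deletion against naive, 2 in anergy against naive and 1 in deletion against anergy. Of all 1246 probe sets 341, 425 and 188 had such a p in the same order. So few genes cannot set the list apart from the array. Both measured partners of presenilin in gamma-secretase stayed within their error of naive in deletion. Ncstn, nicastrin, which receives the substrate, differed from naive by -0.06 ± 0.10 in deletion and 0.07 ± 0.10 in anergy (SE), and Psenen, the small subunit Pen-2, by 0.02 ± 0.07 and -0.15 ± 0.07. Neither passed, and the difference between these subunits and Psen2 was not tested. Itch, a ubiquitin ligase that acts on Notch, differed by -0.17 ± 0.11 in deletion and -0.33 ± 0.11 in anergy (limma adjusted p = 0.0511). Aph1a, Adam10 and Adam17 were not analysed here.

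Rbpj, the DNA-binding partner of the Notch intracellular domain, had log2 levels of 7.12, 6.99 and 7.12 in deletion, 7.01, 6.99 and 6.60 in anergy and 7.52, 7.54 and 7.29 in naive replicates 1 to 3. Both stimulated groups lay below naive on every array. Rbpj fell by 0.58 ± 0.12 in anergy (SE; limma adjusted p = 0.00345), a call held in all 16 other settings. In deletion it was lower by 0.37 ± 0.12 (limma adjusted p = 0.0498), and that call held in 7 of 16. The deletion call was lost after median centring (limma adjusted p = 0.0965), with an intensity trend and robust prior (0.0595) and without any single array other than anergy replicate 3 and naive replicate 3 (0.0505 to 0.17). Of the Hes genes, classical Notch targets, Hes1 differed from naive by -0.08 ± 0.08 in deletion and 0.05 ± 0.08 in anergy, and Hes5 by 0.03 ± 0.07 in both. Neither passed, and their levels of 4.31 to 4.85 lay near the array medians.

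In the list of Notch signalling and targets, 7 of 21 genes were measured. Against naive cells 1 rose and 3 fell in deletion, where 8.51% of all probe sets rose and 10.5% fell. In anergy 2 rose and 3 fell, where 10.8% of all probe sets rose and 16.1% fell. The medians of the list were -0.08 and 0.03. Beside Rbpj the falls were the interleukin-7 receptor Il7r (-2.25 ± 0.20 in deletion and -2.39 ± 0.20 in anergy, SE) and the lymph node homing receptor Ccr7 (-0.99 ± 0.16 and -1.40 ± 0.16). Ifng, a direct Notch target in T cells, rose by 4.38 ± 0.33 and 4.03 ± 0.33. Il2ra, a reported Notch target that encodes CD25, rose in anergy (1.16 ± 0.11) and did not pass in deletion (0.11 ± 0.11). These genes answer antigen receptor and cytokine signals as well, so the list does not read Notch alone.

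**Figure D5:**
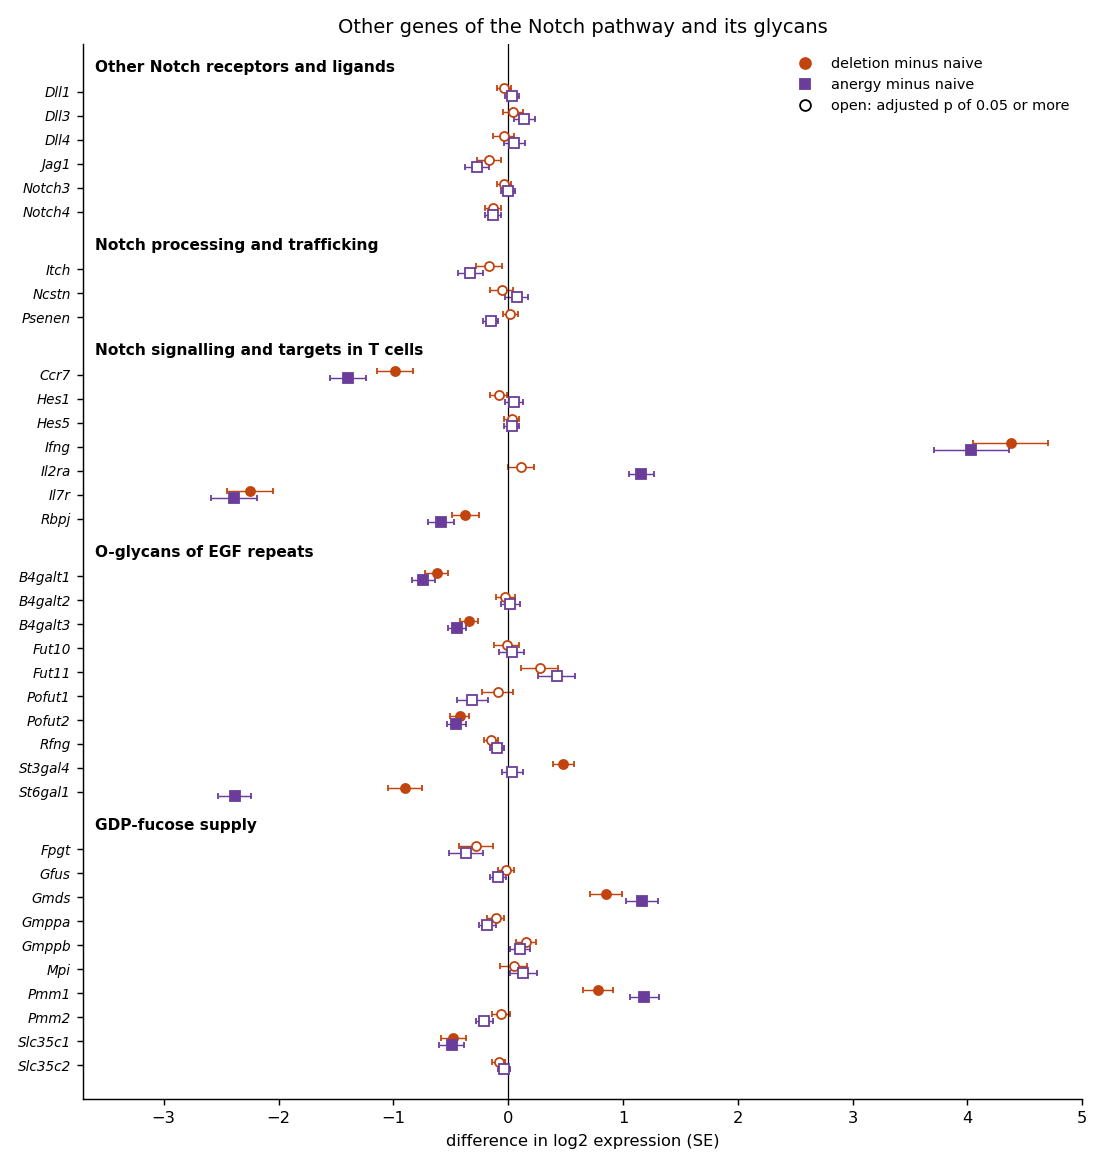
Differences in log2 expression from naive (with SE) for the 36 other genes of the 5 lists that were measured, deletion as circles and anergy as squares, filled where the adjusted p was under 0.05. The other Notch receptors and ligands lie within 0.27 of 0 and are all open, while Rbpj, B4galt1, B4galt3, Pofut2 and Slc35c1 are filled and below 0 in both groups.

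In a list drawn up for the O-glycans of EGF repeats, which also holds enzymes that act on other glycans or domains, 10 of 17 genes were measured. In deletion 1 rose and 4 fell against naive, where 8.51% of all probe sets rose and 10.5% fell. In anergy 0 rose and 4 fell, where 10.8% of all probe sets rose and 16.1% fell. The medians of the list were -0.12 and -0.21. Rfng, radical fringe, the Fringe gene outside the 6, had log2 levels of 7.94, 8.06 and 7.98 in deletion, 8.06, 8.02 and 8.06 in anergy and 8.06, 8.19 and 8.18 in naive replicates 1 to 3. It differed from naive by -0.15 ± 0.06 in deletion and -0.10 ± 0.06 in anergy (SE; limma adjusted p = 0.147 and 0.335). Whether its difference is smaller than those of Lfng and Mfng was not tested.

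Pofut1 adds the O-fucose on which Fringe acts. It differed from naive by -0.09 ± 0.14 in deletion and -0.31 ± 0.14 in anergy (SE; limma adjusted p = 0.804 and 0.133) and did not pass. Pofut2, counted in this list although it fucosylates thrombospondin repeats instead, fell by 0.42 ± 0.08 and 0.45 ± 0.08 (limma adjusted p = 0.0045 and 0.00215). B4galt1, which in hamster cells adds galactose to the Fringe sugar, fell by 0.62 ± 0.10 in deletion and 0.74 ± 0.10 in anergy (limma adjusted p = 0.00148 and 0.000339), and B4galt3 by 0.34 ± 0.08 and 0.44 ± 0.08 (limma adjusted p = 0.00953 and 0.00143). These falls of B4galt1, B4galt3 and Pofut2 held in all 16 other settings in both comparisons. The remaining fall was that of the sialyltransferase gene St6gal1, and the rise in deletion that of St3gal4.

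For the supply of GDP-fucose, the sugar donor, 10 of 13 genes were measured, of which 2 rose and 1 fell in each stimulated group. Over all probe sets 8.51% rose and 10.5% fell in deletion, and 10.8% rose and 16.1% fell in anergy. Gmds, which starts GDP-fucose synthesis from GDP-mannose, rose by 0.85 ± 0.14 in deletion and 1.17 ± 0.14 in anergy (SE). Pmm1, a phosphomannomutase, rose by 0.78 ± 0.13 and 1.19 ± 0.13. Gfus, the enzyme after Gmds, differed by -0.02 ± 0.07 and -0.09 ± 0.07 and did not pass. Slc35c1, the transporter that carries GDP-fucose into the Golgi, fell by 0.48 ± 0.11 in deletion (limma adjusted p = 0.0111; 0.0523 without naive replicate 2) and 0.49 ± 0.11 in anergy (limma adjusted p = 0.00716). Slc35c2, which is linked to O-fucosylation of Notch, differed by -0.08 ± 0.06 and -0.04 ± 0.06 and did not pass.

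Promoter windows of 300 bases, 250 before and 50 after a RefSeq start site, were read for the genes of the list from RefSeq on GRCm38.p6 and searched for TGGGAA, the core of the Rbpj motif, on both strands. The motif was found in 25.6% of 32851 such windows. Windows were found for 5 of the 6 genes, with 2 start sites for Psen2, and none for Mfng. Both Psen2 start sites lie inside the gene, whose 5′ end is placed at chr1:180263467, and no window was read at that end. Those of Notch1, Notch2 and Jag2 and 1 of the Psen2 windows did not hold these letters. The Lfng window held the motif 135 and 108 bases before the start site, and the other Psen2 window 89 bases before it. These windows are shown because Lfng fell while Psen2 rose, 5′ to 3′ on the strand of the gene. Capitals mark the motif, which reads TTCCCA where it lies on the opposite strand. The Lfng window is chr5:140607091-140607390 (plus strand), and the Psen2 window with the motif is chr1:180245901-180246200 (minus strand).
Lfng: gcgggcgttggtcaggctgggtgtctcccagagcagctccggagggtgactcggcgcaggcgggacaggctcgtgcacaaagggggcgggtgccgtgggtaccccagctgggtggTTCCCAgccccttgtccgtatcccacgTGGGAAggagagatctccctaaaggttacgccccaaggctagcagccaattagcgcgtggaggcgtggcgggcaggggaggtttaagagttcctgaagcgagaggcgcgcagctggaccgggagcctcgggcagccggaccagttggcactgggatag
Psen2: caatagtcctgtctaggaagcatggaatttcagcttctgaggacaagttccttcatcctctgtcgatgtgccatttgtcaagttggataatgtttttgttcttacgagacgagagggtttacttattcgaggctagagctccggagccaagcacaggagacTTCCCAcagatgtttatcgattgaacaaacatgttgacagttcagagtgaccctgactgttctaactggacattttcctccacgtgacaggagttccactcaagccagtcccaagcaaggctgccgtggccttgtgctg
In the Lfng window the capitals nearest to the start site overlap the E-box letters CACGTG, 112 bases before it, which are found in 7.15% of all windows. The Psen2 window also holds CACGTG, 9 bases before the start site. The G and C share was 66.7% in the Lfng window, 47.7% in this Psen2 window and 65.7% in the other Psen2 window, against a median of 52.7%. It was 68.3% for Notch1, 73% for Notch2 and 86% for Jag2. The Runx letters TGTGGT, sought on both strands and present in 16.8% of all windows, were in none of the 6 windows read. A match describes letters and does not show binding.

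Markers of other cells were read beside these results, because Notch2, Jag2 and the Fringe genes are expressed in B cells, dendritic cells and endothelium too. Of 10 B cell markers 4 were measured (Cd22, Cd72, Cxcr5 and Fcer2a), and their mean log2 level per array was 5.94 to 6.34 in deletion, 5.88 to 6.03 in anergy and 5.96 to 6.11 in naive cells. Cd22 rose in both stimulated groups, Cxcr5 rose in deletion, and Cd72 fell in both. Fcer2a was at 2.63 to 2.89 on every array. Of 17 macrophage and dendritic cell markers 8 were measured, at means of 3.52 to 3.85 in deletion, 3.51 to 3.69 in anergy and 3.57 to 3.71 in naive cells, and 0 passed limma in any comparison (at an unadjusted p under 0.05, 0 in deletion against naive and 1 in each of the other comparisons). Of 11 endothelial and stromal markers 7 were measured, at 3.71 to 4.08, 3.63 to 3.78 and 3.75 to 3.85 in the same order. Of these Pecam1, which T cells express too, was higher in deletion and lower in anergy than in naive cells. Of the natural killer cell markers Klrd1 fell in both groups and Klra8 did not pass. Siglecf of the granulocyte list rose in both, by 0.33 in deletion and 0.39 in anergy. Its levels of 2.22 to 2.86 lay below the array medians on every array. Kit and Cxcr2 of that list did not pass. Neither of 2 platelet markers passed and no marker of CD4 T cells was matched. Over all probe sets 8.51% rose and 10.5% fell in deletion against naive, and 10.8% rose and 16.1% fell in anergy against naive. Between deletion and anergy 2.09% were higher and 1.28% lower in deletion. At an unadjusted p under 0.05 there were 341, 425 and 188 of all 1246 probe sets in these comparisons. The part of these markers in the results was not tested.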

How the data were processed

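The deposited values are log2 expression levels, 1 per probe set and array, made by the authors with RMA, which the submitters' processing notes name alone. Version, annotation and filters are not given in the sources used here. Per the labels' protocols, 0.5 micrograms of Trizol-extracted total RNA went into each biotin-labelled cRNA.

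Probe sets were named by RefSeq accession without version through a RefSeq gene table of GRCm38.p6, used for names only, which named 963 of 1246 (77.3%). Where a listed gene had several probe sets, the brightest stood for it; each of the 6 genes had 1. Values were fitted as deposited with limma 3.58.1 in R 4.3.3 over all 9 arrays without a block (6 residual and 3.65 prior degrees of freedom; median SE of a difference 0.087), two-sided, with Benjamini-Hochberg adjustment over all probe sets. Precision is limited by the number of arrays. The fit was tested on simulated data.

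Genes named are the 6, the genes of 5 lists and 8 marker lists, and, for each of the 6 past the threshold, the 3 named genes with the smallest root mean square difference of centred profiles. Members and lists were chosen with earlier results of these data known. Same-numbered arrays of deletion and anergy deviated together (r = 0.195, 0.27 and 0.28), a pairing the labels do not state. For same-numbered arrays of anergy and naive r was -0.154, 0.274 and 0.175, and of deletion and naive -0.136, 0.118 and -0.142. Arrays of different number gave r from -0.303 to 0.16 for deletion and anergy. They gave -0.286 to 0.149 for anergy and naive and -0.192 to 0.286 for deletion and naive. Deviations sum to 0 within a group, so these values are not independent. Results are from the unblocked fit, with the replicate block as an alternative. Alternatives were other scalings, a filter on dim probe sets, array weights, another prior, fits of 2 groups, a replicate block and leaving out each array.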

Additional observations from a re-analysis of the deposited data

Results flagged for a closer look

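In 9 of the genes named, the response to the weak and to the strong signal differed by limma's direct test of deletion against anergy, and their values are given without explanation. Psen2 rose by 2.07 in deletion and by 1.62 in anergy against naive, a difference of 0.45 ± 0.07 on the log2 scale (SE, 3 arrays per group; adjusted p = 0.00942), with every deletion array above every anergy array. St6gal1 was 1.48 ± 0.15 higher in deletion than in anergy (limma adjusted p = 0.000368), with differences from naive of -0.90 in deletion and -2.38 in anergy. St3gal4 was 0.44 ± 0.09 higher in deletion than in anergy (limma adjusted p = 0.0315), with differences from naive of 0.48 and 0.04, and this call held in 7 of 16 other settings. It was lost after median centring, with only the 2 groups compared, and without any single array other than deletion replicate 3 and naive replicate 3 (limma adjusted p = 0.0517 to 0.117 without an array). Il2ra differed by -1.05 ± 0.11 (limma adjusted p = 0.000525), with differences from naive of 0.11 in deletion and 1.16 in anergy. Among the marker genes, Cd2 differed by 0.61 ± 0.14 (limma adjusted p = 0.039), with -1.57 in deletion and -2.18 in anergy against naive, and Pecam1 by 0.72 ± 0.09 (limma adjusted p = 0.00234), with 0.43 and -0.30. Of the genes nearest in pattern to one of the 6, Lipa differed by 0.60 (limma adjusted p = 0.0226), Arsa by 0.34 (0.0226) and Pigp by 0.42 (0.0315). Each was lower than naive in both stimulated groups. They were named for likeness to Notch1, Jag2 and Notch2 over these same arrays, a choice that favours a similar difference. The other settings of the test were not run for Cd2, Pecam1, Lipa, Arsa and Pigp. Groups of 3 arrays are too small for a test of outlying samples.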

How the results depend on the processing

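For anergy against naive, all 6 genes passed in every setting run. For deletion against naive, 6 passed, and 3 passed after median centring (Jag2, Lfng and Psen2) and when a change of at least 1.5-fold was also asked (Notch2, Lfng and Psen2; chosen after seeing the data), with 3 to 6 when an array was left out. Between deletion and anergy 1 passed, 2 with array weights, 0 at 1.5-fold, and 0 to 1 without an array, the 0 without deletion replicate 2. For the whole array this comparison gave 42 calls, 70 after quantile normalization, 26 after median centring, 21 with only the 2 groups and 75 with array weights, and 20 to 44 without an array. The difference of Lfng between deletion and anergy, -0.02, was 0.013 after median centring and -0.18 to 0.11 without an array, never past the threshold. The cause was not tested. With a replicate block no call of the 6 genes changed (55 calls against 42 over the whole array between deletion and anergy). The mean over several probe sets could not be run, since each gene has 1. Without a detection call, changes of Jag2, Hes1 and the dim ligands may be understated.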

Other observations

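Of the 8 measured markers of macrophages and dendritic cells and the 7 of endothelium and stroma, Vcam1 and Mrc1 were picked after their values were seen. They varied between arrays of a group. Other markers varied too, such as Adgre1 (2.12, 3.14 and 2.79 in deletion replicates 1 to 3) and Csf1r (5.13, 5.65 and 5.71). Some hardly varied, such as Lum at 1.94 to 2.0 on the 9 arrays. Vcam1, an adhesion molecule of endothelium and splenic macrophages, had log2 levels of 2.22, 4.50 and 4.77 in deletion, 2.06, 2.96 and 2.97 in anergy and 3.32, 3.48 and 2.45 in naive replicates 1 to 3. Mrc1, the mannose receptor of macrophages, had 3.07, 3.78 and 3.78 in deletion, 2.86, 3.20 and 3.14 in anergy and 3.53, 3.47 and 2.83 in naive replicates 1 to 3. Within its group each was lowest on deletion replicate 1, anergy replicate 1 and naive replicate 3. Of the other macrophage and dendritic cell markers this also held for Csf1r, Adgre1 and Clec4n. It did not hold for Siglec1, Cd209a, Clec10a and Clec4a2. Notch2, which macrophages and dendritic cells also express, had 7.16, 7.21 and 6.99, then 6.89, 7.07 and 6.47, then 7.79, 7.93 and 7.44 on the same arrays. Within its group Notch2 was lowest on deletion replicate 3, anergy replicate 3 and naive replicate 3, the same array as Vcam1 and Mrc1 in naive cells only. A link between these markers and Notch2 was not tested.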
